A study of Mus musculus with 16 samples.

Results

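The genes described here encode the neuregulin and endothelin signals of the embryonic heart, with their receptors and the enzyme that activates endothelin. Of 9 genes listed (*Nrg1*, *Hbegf*, *Erbb2*, *Erbb3*, *Erbb4*, *Edn1*, *Ece1*, *Ednra* and *Ednrb*), 8 had a probe set that named them alone, out of 21640 probe sets of that kind among 34760 on the array. Each of the 8 had 1 such probe set, so no gene had a second measurement of that kind. *Ednra* had none listed, and its level was not analysed here.

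The mutant hearts, from embryos of the genotype *Chd7* fl/fl;*Mesp1-Cre*, were set against control hearts at stages E11.5 and E13.5, with 4 hearts per genotype and stage, to find transcripts that change when the chromatin remodeller CHD7 is removed from the mesoderm. In the mutant hearts both *Chd7* alleles were floxed and were deleted by Cre under the control of *Mesp1*, which acts from early development in the pharyngeal and cardiac mesoderm and so in the precursors of the myocardium and endocardium, but not in neural crest cells. All embryos were on a C57BL/6 background by their labels, and the study maintained its mouse lines on C57Bl/6 J. The controls are labelled WT, and the study calls them *Chd7* +/+;*Mesp1-Cre*, whereas a cross of *Chd7* fl/+;*Mesp1-Cre* with *Chd7* fl/fl mice, the cross named in the labels, gives every embryo a floxed allele, so the genotype of the controls was not settled. Each array held RNA from a single whole heart, a mixture of myocardium, endocardium, cushions, epicardium and vessels, and values are log2 expression after RMA normalisation. The 6 cardiomyocyte markers averaged 12.61 to 13.14 per heart on the log2 scale, whereas the 5 liver and lung markers averaged 6.04 to 6.98 and lay between percentile 24.5 (*Sftpc*) and 52.4 (*Apoa1*) of the probe sets.

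Neuregulin 1 is made mainly by the endocardium and acts on the myocardium, where it binds ErbB4 (and ErbB3 in other cells), and these receptors signal as pairs with ErbB2, which binds no ligand itself. The pathway is known for its requirement in trabeculation, for ErbB3 in the endocardial cushions and the neural crest, and for HB-EGF in the remodelling of the valves. Endothelin-1 is made by endothelial and other cells as an inactive precursor that is cleaved by the endothelin converting enzyme ECE1, and it acts through the G protein-coupled receptors EDNRA and EDNRB. The endothelin pathway is known for its role in neural crest cells of the pharyngeal arches and outflow tract, and both endothelin-1 and neuregulin can turn embryonic cardiomyocytes towards conduction cells in culture.

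*Chd7* itself was measured first, as a check of the labels. Its brightest probe set, 1 of 30 that named it alone, read 10.64, 10.89, 10.64 and 10.84 in the control hearts at E11.5 and 9.26, 9.73, 9.16 and 9.68 in the mutant hearts. At E13.5 it read 10.22, 9.88, 10.30 and 9.83 in controls and 8.98, 8.98, 8.88 and 9.07 in mutants. The genotypes did not overlap at either stage, and the mutant level was 40.8% of control at E11.5 (limma adjusted p = 0.00132) and 47.3% at E13.5 (limma adjusted p = 0.0209). Where this probe set lies relative to the deleted part of the gene is not given in the sources used here. The study lists a larger decrease of *Chd7* at each stage, and the other probe sets that name it were not summarised here. The SD, over single-gene probe sets, of a heart's log2 difference from the mean of the other hearts of its group was 0.290 to 0.372 at E11.5 and 0.213 to 0.264 at E13.5. It was 0.372, 0.348 and 0.340 in mutant E11.5 replicates 3, 4 and 1, 0.340 in control E11.5 replicate 2 and 0.264 in control E13.5 replicate 1. Results were also computed without each heart in turn, and without mutant E11.5 replicates 3 and 4 and control E13.5 replicate 1 together, 3 hearts chosen with earlier results of these data known and not by this SD. The level of 3 Y-linked genes was high in 4 controls and 2 mutants of the 4 each at E11.5, and for E13.5 in 2 controls and 1 mutant.

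Of the 8 genes, *Edn1* and *Ednrb* of the endothelin pathway were fully apart between genotypes at both stages, and no other was. The ligand gene *Edn1* was higher in all 8 mutant hearts than in the controls of the same stage, and the receptor gene *Ednrb* was lower. To show the sequence at their start sites, the 250 bases before a RefSeq transcript start of each gene are given 5′ to 3′ on the strand of the gene (build GRCm38.p6). They are chr13:42301226-42301475 on the plus strand for *Edn1* and chr14:103843702-103843951 on the minus strand for *Ednrb*. The listed span of *Ednrb* extends to base 103844508, upstream of the start used, and the sequence at that end is not shown. Capitals mark the letters CCAAT or their complement ATTGG.
*Edn1*, 250 bases before the start: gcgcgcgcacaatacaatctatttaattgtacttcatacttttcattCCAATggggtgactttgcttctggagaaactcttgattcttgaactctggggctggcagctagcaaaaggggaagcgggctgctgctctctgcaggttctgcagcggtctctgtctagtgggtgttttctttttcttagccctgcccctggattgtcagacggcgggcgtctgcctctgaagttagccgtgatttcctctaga
*Ednrb*, 250 bases before the start: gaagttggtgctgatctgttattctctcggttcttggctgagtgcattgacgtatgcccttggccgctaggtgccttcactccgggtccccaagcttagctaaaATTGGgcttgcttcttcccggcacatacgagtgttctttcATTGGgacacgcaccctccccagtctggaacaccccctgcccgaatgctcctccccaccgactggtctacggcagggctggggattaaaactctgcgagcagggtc
The first 30 bases from the *Edn1* start (chr13:42301476-42301505, plus strand) are shown because they held the complement of GATAA at base 9 and the complement of ACGTG at base 22, both in capitals.
*Edn1*, first 30 bases: gccgggtcTTATCtctggctgCACGTtgcc
The search on both strands covered 6 short motifs, CCAAT (the CCAAT box), GATAA (bound by GATA factors), ACGTG (the core of hypoxia-response elements), TGANTCA (bound by AP-1), GGGCGG (the GC box) and TATAAA (the TATA box), and no 2 matches shown here overlap. In the *Edn1* window of 250 bases before the start, CCAAT was found 203 bases before the start, and in that of *Ednrb* its complement was found 146 and 106 bases before the start. CCAAT or its complement was present in 33.8% of 32851 windows of 250 bases, and in windows of 300 bases (250 before and 50 after the start) GATAA was present in 25.4% and ACGTG in 19.6%. No match of the other 3 motifs was found in the 300 bases of *Edn1* or *Ednrb*. Of the 9 genes, 6 had a window listed, and *Nrg1*, *Erbb3* and *Hbegf* did not. These matches describe letters only, and binding was not measured here.

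At each stage, none of the 8 genes was called at the study's thresholds (log2 FC over 0.5 in size and an adjusted p under 0.05, limma with Benjamini-Hochberg adjustment over all probe sets). The background was 0.300% of single-gene probe sets called lower and 0.0970% called higher at E11.5, and 0.0416% lower and 0.0139% higher at E13.5. With an unadjusted limma p under 0.05 and the same fold change, 2 genes passed at each stage, *Edn1* and *Ednrb*. The background for this rule was 1.81% lower and 1.32% higher at E11.5, and 0.836% lower and 0.564% higher at E13.5. An exact permutation test of the means, whose smallest possible p with 4 against 4 hearts is 0.0286, was at that value for 3 genes at E11.5 (*Nrg1*, *Edn1* and *Ednrb*) and 2 at E13.5 (*Edn1* and *Ednrb*). Hearts of the genotypes were fully apart for 2.09% of single-gene probe sets in the lower and 1.94% in the higher direction at E11.5, for 2.19% and 2.02% at E13.5, and at both stages together for 0.494% and 0.180%. In the mean over both stages, which sets 8 mutant against 8 control hearts with stage kept in the fit, *Ednrb* was called, against a background of 0.439% called lower and 0.129% called higher. The median mutant effect over the 8 genes was -0.14 at E11.5, 0 at E13.5 and -0.06 in the mean, beside medians of 0.003, 0.004 and 0.002 over all single-gene probe sets.

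**Figure D1:**
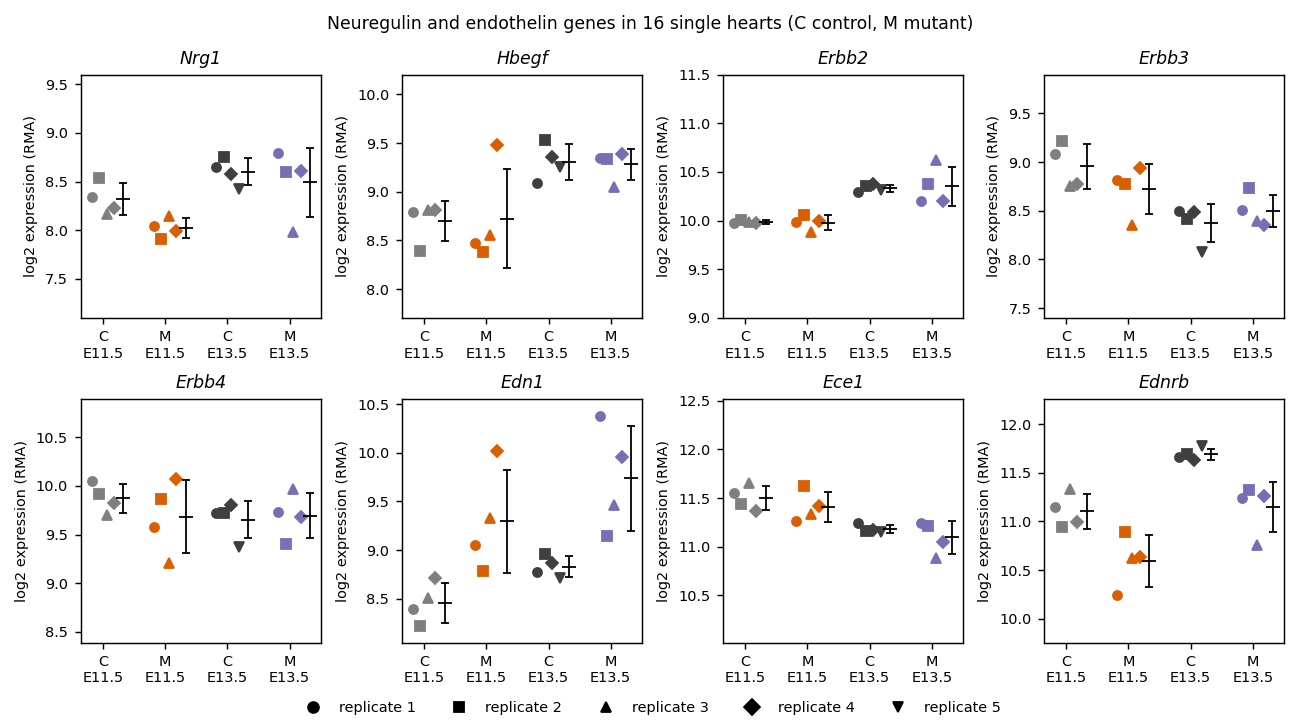
Log2 expression (RMA) of the 8 genes in each of the 16 hearts, with 1 panel per gene, the same span of log2 units on every vertical axis, control (C) and mutant (M) groups at E11.5 and E13.5 along the horizontal axis, symbols for the replicate number, and black bars for the mean ± SD of 4 hearts. *Edn1* lay above and *Ednrb* below the controls in all mutant hearts of each stage, *Nrg1* lay below at E11.5, and the other genes overlapped between genotypes at both stages.

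*Nrg1*, the neuregulin ligand of the endocardium, was lower in mutant hearts at E11.5 in every heart but did not pass the adjusted test. It read 8.04, 7.91, 8.15 and 7.99 in mutants and 8.34, 8.54, 8.17 and 8.23 in controls. The mutant level was 81.6% of control (log2 FC -0.29, SE 0.15, 95% interval -0.61 to 0.03, limma adjusted p = 0.577, n = 4 and 4), and the groups did not overlap, as was so for 2.09% of single-gene probe sets in this direction. At E13.5 it read 8.79, 8.60, 7.98 and 8.61 in mutants and 8.65, 8.75, 8.58 and 8.42 in controls, so that 1 mutant heart was low and the others lay among or above the controls. The log2 FC at E13.5 was -0.11 (95% interval -0.43 to 0.21, limma adjusted p = 1), and without mutant replicate 3 it was 0.07. The effects at the stages differed by 0.19 (95% interval -0.26 to 0.64, limma adjusted p = 1), which leaves a difference of either sign within the interval. From highest to lowest mean, the groups were control E13.5 (8.60 ± 0.14, SD, n = 4), mutant E13.5 (8.49 ± 0.36), control E11.5 (8.32 ± 0.16) and mutant E11.5 (8.02 ± 0.10), and of these neighbours only the last pair did not overlap.

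*Hbegf*, whose product is a membrane-anchored ligand of EGFR and ErbB4, gave no sign of a genotype effect beyond the spread of the hearts. At E11.5 it read 8.47, 8.38, 8.56 and 9.48 in mutants and 8.79, 8.39, 8.81 and 8.81 in controls. Mutant replicate 4 was the highest of the 8 hearts, and the other mutant hearts lay at the lower end of the controls or below them. The log2 FC was 0.03 (95% interval -0.40 to 0.45, limma adjusted p = 0.985) and became -0.23 without that heart. At E13.5 it read 9.35, 9.34, 9.05 and 9.39 in mutants and 9.09, 9.53, 9.36 and 9.25 in controls, with a log2 FC of -0.03 (95% interval -0.45 to 0.40). The order of the means was control E13.5 (9.31 ± 0.19, SD, n = 4), mutant E13.5 (9.28 ± 0.16), mutant E11.5 (8.73 ± 0.51) and control E11.5 (8.70 ± 0.21), and each group overlapped the next.

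*Erbb2*, the partner receptor without a ligand, read 9.98, 10.06, 9.88 and 9.99 in mutants and 9.97, 10.01, 9.98 and 9.97 in controls at E11.5. At E13.5 it read 10.20, 10.38, 10.62 and 10.20 in mutants and 10.29, 10.35, 10.37 and 10.31 in controls. The control hearts lay close together at E13.5, with the mutant hearts on both sides of them. The log2 FC was 0.00 at E11.5 (95% interval -0.21 to 0.20) and 0.02 at E13.5 (95% interval -0.18 to 0.22). The means of both genotypes were 9.98 at E11.5 (SD 0.02 in controls and 0.07 in mutants), below 10.33 ± 0.04 in controls and 10.35 ± 0.20 in mutants at E13.5 (n = 4 each), and the genotypes overlapped at each stage.

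*Erbb3*, the receptor of cushion mesenchyme and neural crest with little kinase activity of its own, read 8.82, 8.78, 8.35 and 8.94 in mutants and 9.08, 9.22, 8.75 and 8.77 in controls at E11.5. At E13.5 it read 8.51, 8.73, 8.40 and 8.35 in mutants and 8.50, 8.42, 8.49 and 8.08 in controls. The groups overlapped at both stages, with a log2 FC of -0.23 at E11.5 (95% interval -0.56 to 0.09, limma adjusted p = 0.685) and 0.13 at E13.5 (95% interval -0.20 to 0.45, limma adjusted p = 1). The difference between these effects was 0.36 (SE 0.22, 95% interval -0.10 to 0.82, limma adjusted p = 1). No single-gene probe set passed this test of the difference, and none of the 8 genes had an unadjusted limma p under 0.05 in it. By mean, control E11.5 hearts (8.96 ± 0.23, SD, n = 4) were followed by mutant E11.5 (8.72 ± 0.26), mutant E13.5 (8.50 ± 0.17) and control E13.5 (8.37 ± 0.20), and each group overlapped the next.

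*Erbb4*, the neuregulin receptor of cardiomyocytes, read 9.58, 9.87, 9.21 and 10.07 in mutants and 10.05, 9.92, 9.70 and 9.82 in controls at E11.5. Its E13.5 values were 9.73, 9.40, 9.97 and 9.68 in mutants and 9.72, 9.72, 9.80 and 9.37 in controls. The mutant hearts were the more spread at E11.5, with an SD of 0.37 beside 0.15, and reached below and above the controls. The log2 FC was -0.19 at E11.5 (95% interval -0.56 to 0.18) and 0.04 at E13.5 (95% interval -0.32 to 0.41). The 4 group means lay between 9.65 and 9.87, and all groups overlapped.

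*Edn1*, which encodes endothelin-1, was higher in mutant hearts at both stages. At E11.5 it read 9.05, 8.79, 9.33 and 10.02 in mutants and 8.40, 8.22, 8.51 and 8.71 in controls. At the later stage it read 10.38, 9.15, 9.46 and 9.96 in mutants and 8.78, 8.96, 8.87 and 8.71 in controls. The lowest mutant heart of each stage lay above the highest control of that stage, and the mutant hearts were spread over more than a log2 unit while the controls were close together. The mutant level was 1.79-fold that of control at E11.5 (log2 FC 0.84, SE 0.26, 95% interval 0.29 to 1.39, limma adjusted p = 0.267, exact permutation p = 0.0286, n = 4 and 4) and 1.87-fold at E13.5 (log2 FC 0.90, SE 0.26, 95% interval 0.35 to 1.45, limma adjusted p = 0.657, exact permutation p = 0.0286). In the mean over both stages it was 1.83-fold (log2 FC 0.87, SE 0.18, 95% interval 0.48 to 1.26), and the limma adjusted p of 0.0531 did not pass. This p ran from 0.0165 to 0.24 over 27 alternative settings and passed in 7 of them. The effects at the stages differed by 0.07 (95% interval -0.71 to 0.84). The groups ran from mutant E13.5 (9.73 ± 0.54, SD, n = 4) to mutant E11.5 (9.30 ± 0.53), control E13.5 (8.83 ± 0.11) and control E11.5 (8.46 ± 0.20), and each met or overlapped the next.

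Without the 3 hearts named above, the log2 FC of *Edn1* was 0.46 for E11.5, 0.89 for E13.5 and 0.67 in the mean (limma adjusted p = 0.24). Of these hearts, mutant E11.5 replicate 4, with the highest *Edn1* of its stage, also had the highest mean over a list of 8 hypoxia-induced genes, 11.02 beside 10.08 to 10.22 in the other mutants and 9.98 to 10.05 in the controls. All 8 genes of that list had a log2 FC above 0 at E11.5 (median 0.34, none called, 1 with an unadjusted limma p under 0.05, as had 4.52% of single-gene probe sets in this direction) and 7 of 8 at E13.5 (median 0.15, none called). At E13.5 the mutants with the highest *Edn1*, replicates 1 and 4, stood at 10.69 and 10.73 on the hypoxia list, and replicates 2 and 3 at 10.33 and 10.35. The control range was 10.24 to 10.63, and the control heart at 10.63 had an *Edn1* value of 8.78, below all mutants. The part of these genes in the *Edn1* values was not tested. Among hearts with high Y-linked genes, *Edn1* was 8.79 to 9.33 in mutants and 8.22 to 8.71 in controls at E11.5, and 9.96 in 1 mutant beside 8.71 to 8.87 in 2 controls at E13.5. Among hearts with low Y-linked genes at E13.5 it was 9.15 to 10.38 in mutants and 8.78 to 8.96 in controls, and E11.5 had no control of that kind.

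*Ece1*, which encodes the converting enzyme, showed no genotype difference beyond the spread of the hearts. It read 11.26, 11.62, 11.34 and 11.42 in mutants and 11.55, 11.44, 11.65 and 11.37 in controls at E11.5. The E13.5 values were 11.24, 11.21, 10.88 and 11.05 in mutants and 11.24, 11.16, 11.17 and 11.15 in controls. The log2 FC was -0.10 at E11.5 (95% interval -0.32 to 0.13), -0.09 at E13.5 (95% interval -0.31 to 0.14) and -0.09 in the mean (95% interval -0.25 to 0.07, limma adjusted p = 0.847). By mean the groups were control E11.5 (11.51 ± 0.12, SD, n = 4), mutant E11.5 (11.41 ± 0.15), control E13.5 (11.18 ± 0.04) and mutant E13.5 (11.09 ± 0.17), with a gap only between the stages.

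*Ednrb*, which encodes the endothelin receptor that binds all endothelins alike and is expressed in endothelium and in neural crest derivatives, was lower in mutant hearts at both stages. At E11.5 it read 10.24, 10.89, 10.62 and 10.63 in mutants and 11.15, 10.94, 11.33 and 10.99 in controls. In E13.5 hearts it read 11.24, 11.32, 10.76 and 11.26 in mutants and 11.66, 11.69, 11.63 and 11.77 in controls. Every mutant heart lay below every control of its stage, narrowly so at E11.5, where the highest mutant read 10.89 and the lowest control 10.94. The mutant level was 70.3% of control at E11.5 (log2 FC -0.51, SE 0.15, 95% interval -0.82 to -0.19, limma adjusted p = 0.226, exact permutation p = 0.0286) and 68.8% at E13.5 (log2 FC -0.54, 95% interval -0.85 to -0.23, limma adjusted p = 0.572, exact permutation p = 0.0286). Over both stages it was 69.6% (log2 FC -0.52, SE 0.10, 95% interval -0.75 to -0.30, limma adjusted p = 0.0373, 8 and 8 hearts), which passed. The effects at the stages differed by -0.03 (95% interval -0.48 to 0.41). The group means fell from control E13.5 (11.69 ± 0.06, SD, n = 4) over mutant E13.5 (11.15 ± 0.26) and control E11.5 (11.10 ± 0.18) to mutant E11.5 (10.59 ± 0.27), so that mutant hearts of E13.5 overlapped control hearts of E11.5, while the other neighbours were apart.

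The call of *Ednrb* over both stages was close to the threshold, though its log2 FC stayed between -0.57 and -0.46. It was lost in 16 of 27 alternatives, with adjusted p between 0.00716 and 0.266 over all of them, and in 13 of the 16 fits that left out a single heart, where it held only without replicate 2 of mutant E11.5, control E11.5 or mutant E13.5. Without the same 3 hearts the log2 FC was -0.54 at E11.5, -0.55 at E13.5 and -0.55 in the mean (limma adjusted p = 0.182), and with the Y-linked level as a covariate -0.47 in the mean (limma adjusted p = 0.17). Among hearts with high Y-linked genes, *Ednrb* was 10.62 to 10.89 in mutants and 10.94 to 11.33 in controls at E11.5, and 11.26 beside 11.63 to 11.77 at E13.5, and among those with low levels at E13.5 it was 10.76 to 11.32 in mutants and 11.66 to 11.69 in controls.

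Since whole hearts were measured, fewer cells that express a gene and less RNA per cell cannot be told apart. The mean over 10 endothelial and endocardial markers was 10.23 to 10.38 in mutants and 10.29 to 10.39 in controls at E11.5, and 10.43 to 10.67 in mutants and 10.66 to 10.72 in controls at E13.5. Of these 10 genes, 8 had a log2 FC below 0 at each stage, with medians of -0.04 and -0.13, none called. The heart with the lowest *Ednrb* of each mutant group, replicate 1 at E11.5 and replicate 3 at E13.5, also had the lowest endothelial mean of its group (10.23 and 10.43). Mutant E11.5 replicate 4 had the highest endothelial mean of its group (10.38) with an *Ednrb* value of 10.63. Mutant E13.5 replicate 1 had the highest of its group (10.67) with an *Ednrb* value of 11.24. Both *Ednrb* values lay below all controls of their stage. The mean over 6 markers of cushion mesenchyme was 9.85 to 10.06 in mutants and 10.03 to 10.25 in controls at E11.5, and 9.70 to 9.94 beside 9.89 to 10.15 at E13.5, with medians of -0.23 and -0.20, none called. At an unadjusted limma p under 0.05, 2 of the 6 were lower and 0 higher at each stage. The shares of single-gene probe sets lower by this rule were 5.02% at E11.5 and 2.11% at E13.5. In the mean over both stages 4 were lower and 0 higher, beside 4.43% of single-gene probe sets lower. Of the neural crest and neuronal markers 6 of 9 were measured, and their mean was 6.82 to 7.11 in mutants and 7.11 to 7.14 in controls at E11.5, and 7.03 to 7.42 beside 7.08 to 7.21 at E13.5. Their log2 FC ran from -0.81 to 0.17 at E11.5 (median -0.09) and from -0.16 to 0.36 at E13.5 (median -0.03), none called. At an unadjusted limma p under 0.05, 1 of the 6 was lower and 0 higher at E11.5, and 0 in either direction at E13.5. The neural crest marker *Sox10* lay at percentile 49.3 of the probe sets, and the 4 melanocyte markers between 29.0 (*Tyrp1*) and 49.8 (*Mlana*). The mean over these 4 was 6.17 to 6.52 in mutants and 6.30 to 6.69 in controls at E11.5. At E13.5 it was 5.93 to 6.11 in mutants and 6.17 to 6.52 in controls, so that the genotypes did not overlap. Single-gene probe sets were apart in this direction at E13.5 in 2.19% of cases, and no such share was computed for means over lists. All 4 had a log2 FC below 0 at E13.5 (median -0.23, none called), and *Dct* the lowest at -0.73 (limma adjusted p = 1). The 5 epicardial markers all had a log2 FC above 0 at both stages (medians 0.26 and 0.30, none called). The part of these cell types in the values of *Ednrb*, *Edn1* or *Nrg1* was not tested.

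**Figure D2:**
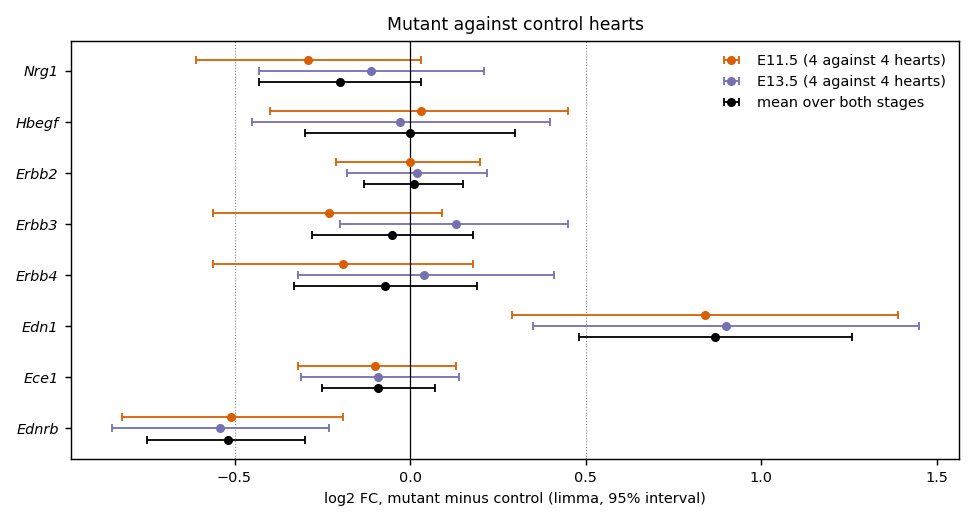
Log2 FC of mutant minus control hearts for the 8 genes at E11.5, at E13.5 and in the mean over both stages, with 95% intervals from limma, and dotted lines at the threshold of 0.5 in either direction. The intervals of *Edn1* and *Ednrb* exclude 0 at both stages, and those of the other genes include it.

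**Figure D3:**
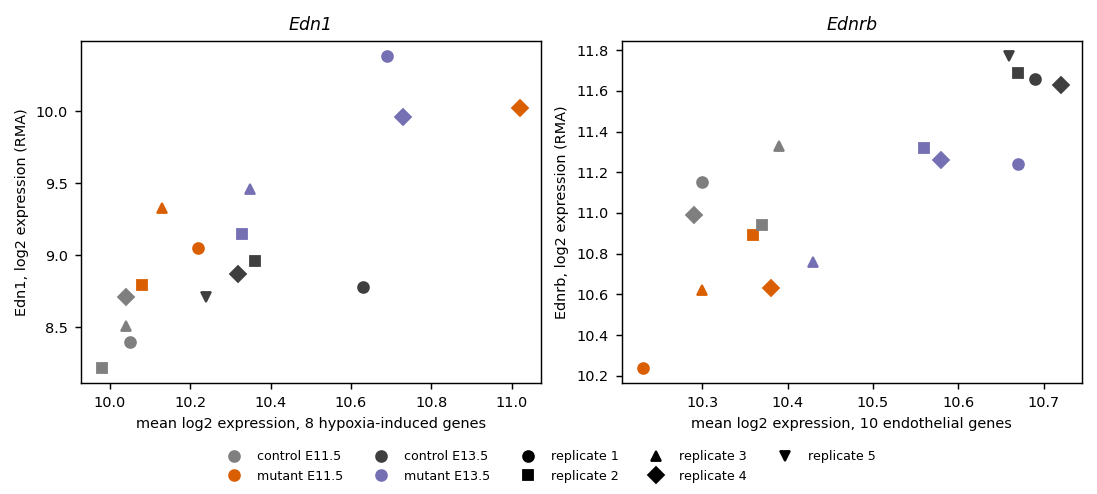
Left, *Edn1* against the mean log2 expression of 8 hypoxia-induced genes in each of the 16 hearts. Right, *Ednrb* against the mean of 10 endothelial and endocardial genes. Colours give the group and symbols the replicate number. Mutant E11.5 replicate 4 stands at 11.02 on the hypoxia list, and mutant E13.5 replicate 3 stands low both in *Ednrb* (10.76) and in the endothelial mean (10.43).

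The change of the 8 genes between E11.5 and E13.5 was tested within each genotype, and the comparisons share hearts with those between genotypes. In control hearts 3 genes were called, *Hbegf* and *Ednrb* higher and *Erbb3* lower at E13.5, where the background was 16.7% called higher and 12.5% called lower. In mutant hearts *Hbegf* and *Ednrb* were called higher, where the background was 17.2% higher and 12.7% lower. *Ednrb* was 1.50-fold higher at E13.5 in controls (log2 FC 0.59, SE 0.15, limma adjusted p = 0.0054) and 1.47-fold in mutants (log2 FC 0.55, SE 0.15, limma adjusted p = 0.00755). *Hbegf* was 1.52-fold higher in controls (log2 FC 0.61, SE 0.20, limma adjusted p = 0.0241) and 1.47-fold in mutants (log2 FC 0.56, SE 0.20, limma adjusted p = 0.0363). Control hearts of the stages were apart for both genes, and mutant hearts overlapped. Among all single-gene probe sets, hearts of the stages were apart in 26.7% higher and 15.7% lower in controls and in 24.6% higher and 14.2% lower in mutants.

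The SD within an array was 2.18 to 2.26 at E11.5 and 2.38 to 2.42 at E13.5, so changes between the stages depended on how the arrays were scaled. After quantile normalisation across all arrays, the log2 FC of *Ednrb* was 0.36 in controls and 0.33 in mutants and that of *Hbegf* was 0.43 and 0.36, and neither was called. *Erbb3* was called in control hearts under both scalings, with a log2 FC of -0.58 (SE 0.15, limma adjusted p = 0.00658, 66.7% of the E11.5 level) and -0.75 after quantile normalisation (limma adjusted p = 0.00223). Leaving out control E11.5 replicate 2 or E13.5 replicate 5 brought its size under the threshold (-0.49 to -0.50). In mutant hearts its log2 FC was -0.23 (limma adjusted p = 0.245), and the test of the difference between genotypes is the one given for *Erbb3* above. *Ece1* was lower at E13.5, by a log2 FC of -0.33 in controls and -0.32 in mutants with hearts apart in both (limma adjusted p = 0.0221 and 0.0265), under the threshold on the fold change, and after quantile normalisation the log2 FC was -0.57 and -0.54, which was called. *Erbb2* was higher at E13.5, by 0.35 and 0.37 with hearts apart in both (limma adjusted p = 0.00912 and 0.00629), and by 0.11 and 0.12 after quantile normalisation. *Nrg1* had a log2 FC of 0.28 in controls (limma adjusted p = 0.145) and 0.47 in mutants (limma adjusted p = 0.0207), and the latter was 0.64 without mutant E13.5 replicate 3. *Edn1* had a log2 FC of 0.37 in controls and 0.44 in mutants (limma adjusted p = 0.266 and 0.187), and in mutants it was 0.68 without E11.5 replicate 4 (limma adjusted p = 0.033). *Erbb4* had a log2 FC of -0.22 in controls (limma adjusted p = 0.321) and 0.01 in mutants (limma adjusted p = 0.964), the latter turning to -0.22 after quantile normalisation.

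**Figure D4:**
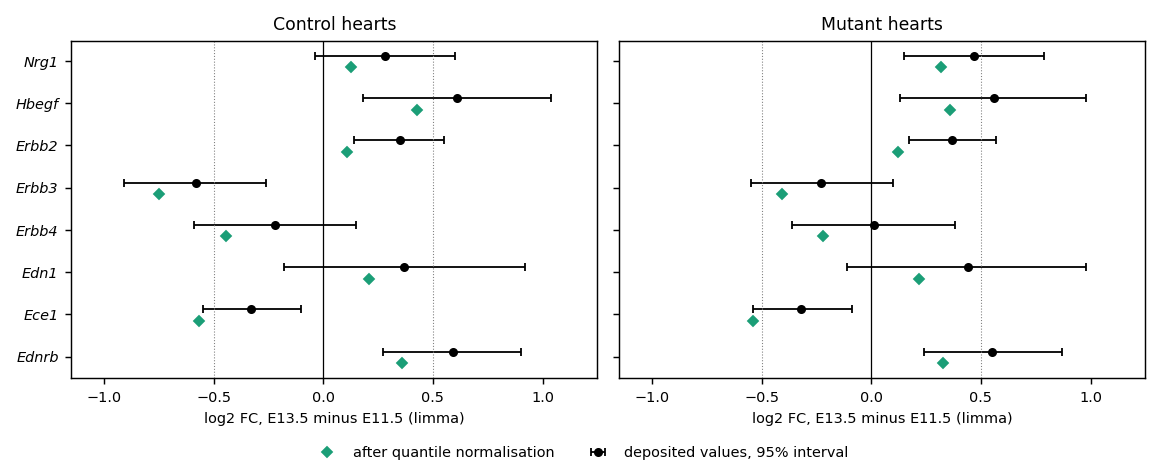
Log2 FC of E13.5 minus E11.5 for the 8 genes in control hearts (left) and mutant hearts (right), with black points and 95% intervals for the deposited values, green diamonds for the values after quantile normalisation, and dotted lines at 0.5 in either direction. Quantile normalisation moved all 8 genes towards lower values at E13.5, as for *Ece1* in controls from -0.33 to -0.57.

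The other genes of the pathways were taken from 6 lists with 59 genes, of which 57 had a probe set. By the brightest single-gene probe set of each, none was called at either stage. At an unadjusted limma p under 0.05, 4 genes were lower and 4 higher at E11.5, with 3 in each direction at E13.5. By this rule 5.02% of all single-gene probe sets were lower and 4.52% higher at the earlier stage, and at the later stage 2.11% were lower and 1.89% higher. In the mean over both stages 1 was called, *Etv1*, with a median log2 FC over the 57 of 0. *Etv1*, a transcription factor of the cardiac conduction system known to act downstream of neuregulin, read 9.23, 9.34, 9.81 and 9.44 in mutants and 10.17, 10.08, 10.16 and 10.09 in controls at E11.5. Its E13.5 values were 10.05, 9.38, 9.51 and 9.95 in mutants and 10.23, 10.42, 10.25 and 10.20 in controls. Its hearts were apart at both stages, and its mutant level was 65.5% of control over both (log2 FC -0.61, SE 0.11, limma adjusted p = 0.0138), with a log2 FC of -0.57 and an adjusted p of 0.0719 with the Y-linked covariate. At E11.5 alone its log2 FC was -0.67 (limma adjusted p = 0.092), which did not pass. The study, however, lists *Etv1* among the genes lower at E11.5 after multiple testing correction at the same thresholds. Only its brightest single-gene probe set was used here, and the reason for the difference was not tested.

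Of the 12 genes on the list known downstream of neuregulin or endothelin, *Etv1* included, 4 were lower and 1 higher at an unadjusted limma p under 0.05 in the mean over both stages, beside 4.43% lower and 4.41% higher of all single-gene probe sets. *Gja5*, the gap junction protein connexin 40 of atria and conduction cells, was measured at E13.5 between 11.83 and 12.03 in mutants and between 11.35 and 11.49 in controls. Its log2 FC over both stages was 0.38 (limma adjusted p = 0.0337), which is under the threshold on the fold change, and at E11.5 its hearts overlapped. *Has2*, the hyaluronan synthase of the cushion matrix, had a log2 FC of -0.59 over both stages (limma adjusted p = 0.164). No E11.5 mutant was above the lowest control, at 9.26, and at E13.5 its hearts overlapped. *Hand2*, a transcription factor that lies downstream of endothelin in the pharyngeal arches, had a log2 FC of -0.36 (limma adjusted p = 0.112), with hearts apart at both stages. None of these 3 was called, and the median of the 12 genes on this list was -0.03.

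Of the 6 other endothelin genes, *Mme*, which encodes neprilysin, a peptidase that degrades endothelins among other peptides, read 8.42, 7.87, 7.58 and 7.78 in mutants and 8.69, 8.66, 8.80 and 8.70 in controls at E11.5. Its hearts were apart at that stage (log2 FC -0.80, SE 0.21, limma adjusted p = 0.177) and overlapped at E13.5 (log2 FC 0.01). The endothelin ligand genes *Edn2* and *Edn3* had a log2 FC over both stages of 0.02 and -0.15, and *Ece2* of 0.02, none called. Of the 11 G proteins and effectors measured, the log2 FC over both stages was between -0.19 and 0.33, the highest for the phospholipase gene *Plcb4* (limma adjusted p = 0.189).

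Of the 9 other ErbB ligands and receptor genes measured, the log2 FC over both stages ran from -0.09 to 0.21 with a median of -0.02. For the 6 shedding and processing enzymes it ran from -0.06 to 0.11. None of the genes on these lists was called or had an unadjusted limma p under 0.05 in the mutant comparisons. Of the 13 adaptors and feedback genes, *Grb7*, an adaptor that binds activated ErbB2, had a log2 FC of 0.47 (SE 0.10, limma adjusted p = 0.0581), and the others ran from -0.11 to 0.13.

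**Figure D5:**
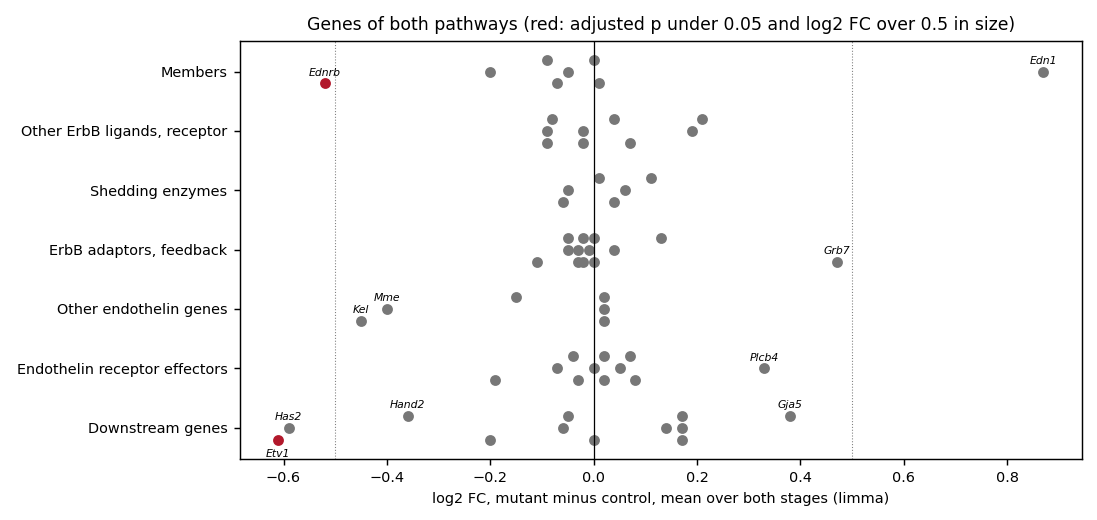
Log2 FC of mutant minus control in the mean over both stages for the 8 genes (top row) and 57 other genes of both pathways in 6 lists, 1 point per gene, with red points where the adjusted p was under 0.05 and the log2 FC over 0.5 in size, names where the log2 FC was over 0.3 in size, and dotted lines at 0.5 in either direction. *Ednrb* and *Etv1* are the red points, at -0.52 and -0.61.

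The genes whose values were most like those of *Edn1* over the 16 hearts, after the mean of each stage was subtracted, were *Ak4* (Pearson r 0.92), *Olfml2b* (0.91), *Lims2* (0.90), *Tm7sf3* (0.90) and *P4ha1* (0.90). After the mean of each of the 4 groups was subtracted, which removes the genotype difference, they were *Skil* (0.92), *Kcne3* (0.90), *Smad4* (0.89), *Pde8a* (0.88) and *Cd47* (0.87), and no gene was on both lists. For *Ednrb* the genes were *Crmp1* (0.90), *Gpr22* (0.90), *I830077J02Rik* (0.89), *Bmp5* (0.88) and *Sh2b3* (0.87) with stage means subtracted, and *Fgf3* (0.91), *Epp13* (0.90), *Eng* (0.88), *Tie1* (0.88) and *Numb* (0.88) with group means subtracted. *Gpr22*, an orphan receptor of the heart, was called at E11.5 (log2 FC -0.84, limma adjusted p = 0.0188), and the study also lists it as lower at that stage. Its likeness to *Ednrb* was taken with only stage means subtracted, which keeps the genotype difference. These r describe 16 arrays, were the highest of 21640 probe sets, and share the hearts with every result above.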

How the data were processed

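RNA from single hearts was hybridised to Affymetrix Mouse Gene 1.0 ST arrays. The values deposited by the authors are on the log2 scale, normalised with RMA in the affy package, and the authors used limma for differential expression. Versions and whether both stages were normalised together are not given in the sources used here. The number of arrays limits the precision.

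The 34760 probe sets were joined to genes through the platform annotation (21640 named 1 gene, 1321 several, 11799 none). A gene was measured by its brightest single-gene probe set. The main model held all 16 arrays and 1 mean per group (limma 3.58.1, R 4.3.3), and p-values were adjusted over all probe sets of a comparison. The fit was tested on simulated data. Exact permutation tests were two-sided. Replicates were individual hearts, and the main model did not pair the genotypes by replicate number. The 8 genes, the gene lists and the alternatives were chosen with earlier results of these data known. Genes outside the 8 were named if called in a mutant comparison, or among the 4 of a list with the smallest p over both stages, or among the 5 most like *Edn1* or *Ednrb*. *Edn2*, *Edn3*, *Ece2* and the markers *Sox10*, *Dct*, *Tyrp1*, *Mlana*, *Sftpc* and *Apoa1* were named after their values were seen. Promoter windows came from RefSeq (GRCm38.p6). Figures were drawn with matplotlib 3.10.9.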

Additional observations from a re-analysis of the deposited data

Results flagged for a closer look

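In 5 of 32 groups of 4 hearts (8 genes in 4 groups), 1 heart was flagged by Dixon's test (its gap to the nearest heart over the range of the group), as chance does in about 1 group in 20. In 3 of them the gene was *Hbegf*: control E11.5 replicate 2 read 8.39 beside 8.79 to 8.81 in the other hearts, mutant E11.5 replicate 4 read 9.48 beside 8.38 to 8.56, and mutant E13.5 replicate 3 read 9.05 beside 9.34 to 9.39. *Ece1* in control E13.5 replicate 1 read 11.24 beside 11.15 to 11.17, in a group with an SD of only 0.04. *Ednrb* in mutant E13.5 replicate 3 read 10.76 beside 11.24 to 11.32, and without this heart its log2 FC over both stages was -0.46 (limma adjusted p = 0.062).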

How the results depend on the processing

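At each stage, and for the difference of the mutant effect between stages, 0 of the 8 genes were called under every alternative run. In the mean over both stages, 1 was called, and 2 with a trended and robust prior, quantile or cyclic loess normalisation, without dim probe sets or with single-gene probe sets only. The count was 0 under the Y-linked covariate, 0 without mutant E11.5 replicates 3 and 4 and control E13.5 replicate 1 together (the 3 hearts), and 0 to 2 with each heart left out. With a replicate block it was 0 (*Ednrb* log2 FC -0.50, limma adjusted p = 0.266), and *Etv1* was not called either (adjusted p = 0.104). Hearts with the same replicate number were not alike in their deviations (r -0.06 to 0.01 over 7 same-numbered pairs, 0 of them over 0.1). These r cannot settle whether the numbers pair the hearts, and the labels do not say. Between stages, the count was 3 in controls, 5 with no threshold on the fold change and 1 to 3 with each heart left out (1 without control E11.5 replicate 2). It was 2 under quantile normalisation (*Erbb3* and *Ece1*), and 2 with the replicate block or the Y-linked covariate. In mutants it was 2, then 1 under quantile or cyclic loess normalisation, where *Ece1* was called and *Hbegf* and *Ednrb* were not. The mutant count was also 1 under the Y-linked covariate (*Ednrb*), 5 with no threshold, and 0 to 3 with each heart left out. It was 0 without E11.5 replicate 1 or E13.5 replicate 2, and 1 without E11.5 replicate 2 or E13.5 replicate 1 or 4. Of 1282 recomputed single values, 1178 kept direction and call, 42 lost a call, 24 gained one and 38 changed sign. Sign changes were in values whose interval held 0. For *Hbegf* at E11.5 the log2 FC became -0.038 with array weights, -0.039 with the Y-linked covariate and -0.271 without the 3 hearts (-0.23 to 0.14 with each heart left out), and at E13.5 it was -0.099 to 0.051 with each left out. For *Erbb2* at E11.5 it became 0.012 with array weights and 0.039 without the 3 hearts (-0.029 to 0.03 with each left out), and at E13.5 -0.006 with the replicate block and -0.001 with the Y-linked covariate (-0.07 to 0.07). For *Erbb4* at E13.5 it became -0.01 with the block and -0.003 with the Y-linked covariate (-0.05 to 0.14). For its change between stages in mutants it became -0.026 with array weights, -0.22 and -0.24 under quantile and cyclic loess normalisation, -0.023 with the Y-linked covariate and -0.029 without the 3 hearts (-0.15 to 0.14). For *Nrg1* at E13.5 it was -0.204 to 0.066 with each heart left out. For the difference between stages, *Edn1* gave -0.15 to 0.31 and *Ednrb* -0.15 to 0.10 with each heart left out, and *Ednrb* 0.012 with the block. The cause of these changes was not tested. The median over a gene's probe sets was not run, because each of the 8 genes had 1 that named it alone. The fit of each stage alone was run for the mutant effects at each stage only.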
